A study of Drosophila melanogaster with 35 samples.

Results

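Neurotransmitter receptor genes of *Drosophila melanogaster* were chosen by symbol, as all genes whose names start with nAChRalpha, nAChRbeta, mAChR-, GluR, Nmdar, KaiR, GABA-B-R, 5-HT, Dop1R, Dop2R, Octalpha, Octbeta or Oct-TyrR, plus mGluR, DopEcR, Rdl, Lcch3 and Grd. The rule matched 45 symbols, of which GluRS-m, a mitochondrial glutamyl-tRNA synthetase that shares only the prefix, was left out by its function. The remaining 44 receptor genes, of 17830 genes in the head count table, fell into 6 transmitter classes: acetylcholine (13), glutamate (11), GABA (6), serotonin (5), dopamine (4) and octopamine and tyramine (5). By mechanism, 23 encode subunits of transmitter-gated ion channels and 21 encode G protein coupled receptors.

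A transmitter released at a synapse acts through ionotropic receptors, which are ion channels that open on binding, and through metabotropic receptors, which signal through G proteins over a longer time. In the fly brain acetylcholine is the main excitatory transmitter and acts on nicotinic channels, GABA is the main inhibitory transmitter, and glutamate is the excitatory transmitter of the neuromuscular junction. Serotonin, dopamine and octopamine, the insect counterpart of noradrenaline, act on G protein coupled receptors and modulate circuits that control arousal, feeding, learning and movement.

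RNA-seq counts were deposited for 23 libraries of adult heads, from flies reared at 25 °C and aged 1 to 5 days. The genotypes were WT KDM5 (n = 5), 5 missense changes of KDM5 called A224T, D234G, L854F, R873W and Y874C (n = 3 each), and JmjC (n = 3), a strain whose KDM5 lacks demethylase activity. KDM5 is a histone demethylase that acts on trimethylated lysine 4 of histone H3. Ribosome profiling was made in 12 libraries from heads with the cell type labelled neurons, with the genotypes elav;RPL3-FLAG (control) and elav;RPL3-FLAG;kdm5RNAI (knockdown), 3 IP and 3 Input libraries each. The promoter of elav is active in neurons, and FLAG-tagged RPL3 is a ribosomal protein that lets their ribosomes be pulled down. Nothing in the labels ties a replicate to its own vial or cross, so each p-value is set against a spread that may be only technical. No sex is stated for the flies.

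The head libraries fell into 2 sets by the male-specific RNA roX2, and the labels name no such sets. WT 1 and 2 grouped with D234G, R873W and Y874C as set 1 (19.4 to 40.5 CPM of roX2), and WT 3 to 5 grouped with A224T, L854F and JmjC as set 2 (0.141 to 0.936 CPM). Each strain was therefore compared with the WT libraries of its own set, so the 3 strains of a set share their controls. The other roX RNA, roX1, was 12.7 to 13.97 CPM in WT 3 to 5. It was 85.8 to 95.3 CPM in L854F, 180 to 218 CPM in A224T and 276 to 335 CPM in JmjC. In set 1 it was 822 to 867 CPM in WT and 526 to 787 CPM over the strains. WT of set 2 is thus not matched to its strains in roX1, and the bearing of this on receptor folds was not tested. Depth ran from 16993554 to 32985353 counts a library, but was 3803077 in D234G 1 and 4960383 in D234G 2. The neuronal genes elav and nSyb were present in every group, from 114 to 238 CPM and from 985 to 1469 CPM, and Kdm5 transcript lay between 431 and 577 CPM. Summed transcripts of 21 male reproductive genes were 836 and 463 CPM in D234G 1 and 3 and 12.2, 121 and 412 CPM in R873W 1, 2 and 3, against 0.815 to 4.85 CPM in the other libraries. The antennal list was higher in WT of set 2 than of set 1 for 10 of 12 genes.

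Transcripts of 42 of the 44 receptor genes passed the filter on low counts and were tested with edgeR's quasi-likelihood test, adjusted over all 12925 genes tested. The gene for nAChRbeta3, a divergent nicotinic subunit, had 0 counts in all 23 head libraries, and it lies within Ets21C, a transcription factor gene on the other strand. The gene for GluRIIB, a muscle glutamate receptor subunit, had 111 counts over all libraries. mAChR-C, a muscarinic receptor, was tested on 133 counts in all. A gene was called at an adjusted p under 0.05, and folds are log2 of strain over WT.

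The strains differed widely in how many receptor transcripts they moved, and in whole heads fewer cells of a type and less RNA per cell cannot be told apart. In JmjC 32 of 42 were lower than in WT of the same set and 0 were higher, where 24.1% of all genes were called, 10% higher and 14% lower. In A224T 12 were lower and 0 higher (16.3% of all genes called, 7.18% higher and 9.1% lower). In R873W 11 were higher and 5 lower (35.4% of all genes called, 16.9% higher and 18.5% lower). In Y874C 4 were higher and 0 lower (11.6% of all genes called, 5.8% higher and 5.83% lower). In L854F 1 was higher and 1 lower (10.3% called, 4.8% higher and 5.49% lower). In D234G 2 were higher and 0 lower (33.7% called, 22.1% higher and 11.6% lower). In this fit the D234G share of 2 in 42 was far under its background, and the R873W, Y874C and L854F shares lay near or under theirs. Of 19 male reproductive genes tested, 19 were called higher in D234G and 14 in R873W, so these 2 backgrounds include such genes. How much of either background comes from libraries with male reproductive RNA was not tested. The median fold over the receptor genes was -0.40 in JmjC, -0.21 in A224T, 0.11 in R873W, and between -0.03 and 0.00 in L854F, D234G and Y874C. Over all genes tested the median was 0.00 in JmjC, A224T and Y874C and 0.03 in R873W. In all, 38 of the 42 were called in at least 1 of the 6 strains, 12 were lower in both JmjC and A224T, which share their WT libraries, and 7 were called higher in one strain and lower in another.

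**Figure D1:**
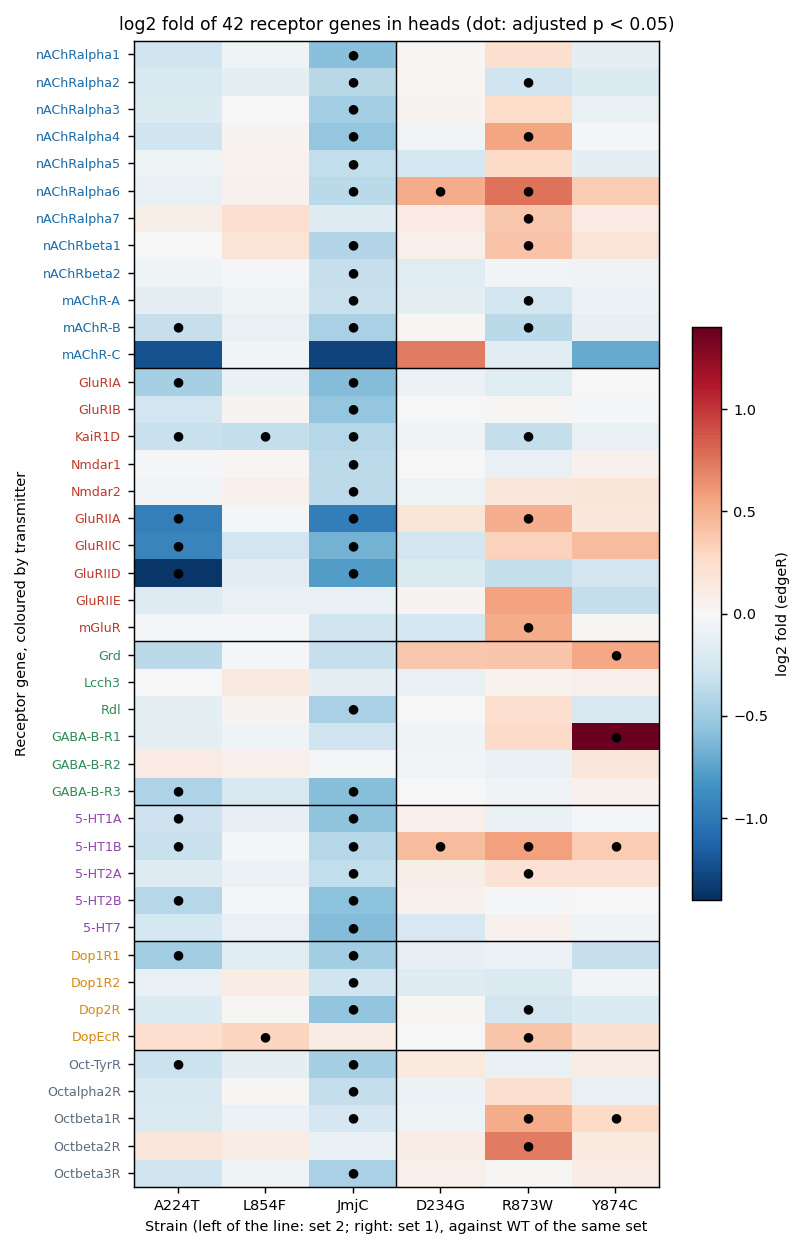
Log2 fold of 42 receptor genes (rows, grouped by transmitter) in 6 strains (columns), each against the WT head libraries of its library set. Color gives the fold and a dot marks an adjusted p under 0.05. The JmjC column holds 32 dots, all lower, and the D234G column holds 2.

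Scaling bears on these counts. With library size in place of TMM scaling the median of all genes shifted up by 0.18 (log2) in JmjC and by 0.12 in A224T, and relative to WT 16 receptor genes were then lower and 1 higher in JmjC and 7 lower and 1 higher in A224T. Of the 12925 genes tested, library size gave 2812 higher and 760 lower in JmjC and 1691 higher and 586 lower in A224T. With DESeq2 the counts were 32 lower in JmjC, 12 lower and 1 higher in A224T, and 13 higher and 2 lower in R873W. Against all 5 WT libraries, which mix both sets, 28 were lower in JmjC, 17 lower and 1 higher in A224T, and 16 higher and 2 lower in R873W.

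**Figure D2:**
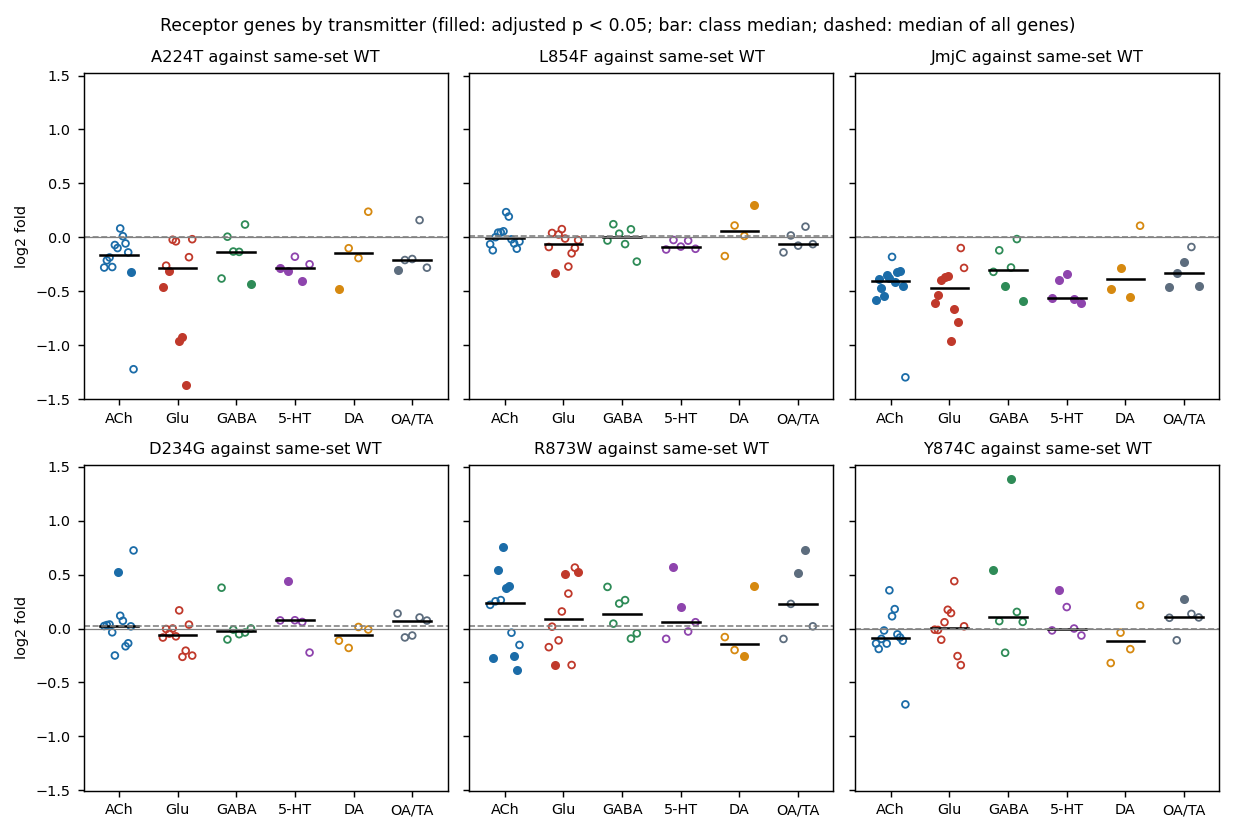
Log2 fold of each receptor gene by transmitter class (ACh acetylcholine, Glu glutamate, 5-HT serotonin, DA dopamine, OA/TA octopamine and tyramine) in each strain against WT of the same set. Filled points have an adjusted p under 0.05, bars are class medians and the dashed line is the median of all genes. All class medians lie below 0 in JmjC and A224T with TMM scaling, and the deepest called falls of A224T are in the glutamate class.

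Nicotinic acetylcholine receptors are pentamers of alpha and beta subunits and carry most fast excitation in the fly brain. In JmjC 8 of 9 tested nicotinic genes fell, where 14% of all genes were called lower. The falls ran from 0.32 (nAChRbeta2) to 0.59 (nAChRalpha1), and nAChRalpha7 had a fold of -0.18 that did not pass. Transcript of nAChRbeta1, a subunit of many brain nicotinic receptors, was 367, 342 and 381 CPM in JmjC 1 to 3 against 444, 494 and 514 CPM in WT 3 to 5. All JmjC libraries lay below the WT libraries, with a fold of -0.41 (standard error 0.09, adjusted p = 0.00153). In A224T no nicotinic gene was called, where 0 of 9 compares with 16.3% of all genes, and their median fold was -0.10. Set directly against A224T, JmjC was lower for nAChRbeta1 by 0.42 (adjusted p = 0.00373) and for nAChRbeta2 by 0.26 (adjusted p = 0.027).

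In R873W the nicotinic genes split. Those for nAChRalpha6 (0.76), nAChRalpha4 (0.55), nAChRbeta1 (0.39) and nAChRalpha7 (0.38) rose, and nAChRalpha2 fell by 0.28. nAChRalpha6 encodes the subunit that the insecticide spinosad acts on and lies on chromosome arm 2L from 9793317 to 9886250 of the dm6 build. Its transcript was 296, 267 and 280.1 CPM in R873W 1 to 3 and 233.5, 255 and 226 CPM in D234G 1 to 3, against 168 and 164 CPM in WT 1 and 2. Every library of both strains lay above both WT libraries. The folds were 0.76 ± 0.13 (standard error, adjusted p = 0.00023) in R873W and 0.52 ± 0.13 (adjusted p = 0.00536) in D234G. Y874C had 269, 182 and 186 CPM, all above WT, with a fold of 0.35 that did not pass (adjusted p = 0.083). Within JmjC the gene went the other way, at 149.7, 147 and 170.2 CPM against 179, 202 and 223.7 CPM in WT 3 to 5 (fold -0.37, adjusted p = 0.0223).

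Several nicotinic calls rested on single libraries. In D234G the nAChRalpha6 call was lost without WT 2 (adjusted p = 0.0788). In R873W, nAChRalpha4 was lost without WT 1 (0.0505) or WT 2 (0.0555), nAChRalpha7 without WT 1 (0.0548) or WT 2 (0.0927), and nAChRbeta1 without WT 2 (0.0749). nAChRalpha2 in R873W was lost without WT 1 (0.206), WT 2 (0.0763), R873W 1 (0.107) or R873W 2 (0.17), all as adjusted p. In JmjC, nAChRalpha6 (adjusted p up to 0.13, without JmjC 2), nAChRalpha5 (up to 0.216, without JmjC 2) and nAChRalpha3 (0.0531, without WT 5) were lost. nAChRalpha6 in R873W and nAChRalpha1, nAChRalpha2, nAChRalpha4, nAChRbeta1 and nAChRbeta2 in JmjC passed with any 1 library left out.

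Muscarinic acetylcholine receptors are the G protein coupled receptors of this transmitter. mAChR-B, on chromosome arm 3R from 8059284 to 8087049, couples to inhibitory G proteins. It measured 31.1, 29.3 and 31.9 CPM in JmjC and 36.1, 35.0 and 30.04 CPM in A224T, against 37.0, 42.9 and 46.8 CPM in WT 3 to 5. In R873W it measured 34.1, 34.2 and 37.1 CPM against 44.9 and 46.6 CPM in WT 1 and 2. All libraries of these 3 strains lay below the WT libraries of their set, and the folds were -0.46 in JmjC (adjusted p = 0.00106), -0.33 in A224T (0.0179) and -0.38 in R873W (0.00667). The other strains overlapped WT or did not pass, with 36.4, 38.2 and 43.1 CPM in L854F, 47.6, 50.7 and 42.02 CPM in D234G, and 40.5, 43.6 and 42.8 CPM in Y874C. mAChR-A, the other well expressed muscarinic receptor, fell by 0.31 in JmjC and by 0.26 in R873W. The A224T call of mAChR-B was lost without A224T 3 (adjusted p = 0.118), WT 4 (0.059) or WT 5 (0.106), and the R873W call without WT 2 (0.0541). That of mAChR-A was lost in JmjC without JmjC 1 (0.0564), JmjC 2 (0.0878) or WT 5 (0.0536), and in R873W without R873W 2 (0.186) or WT 1 (0.297).

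**Figure D3:**
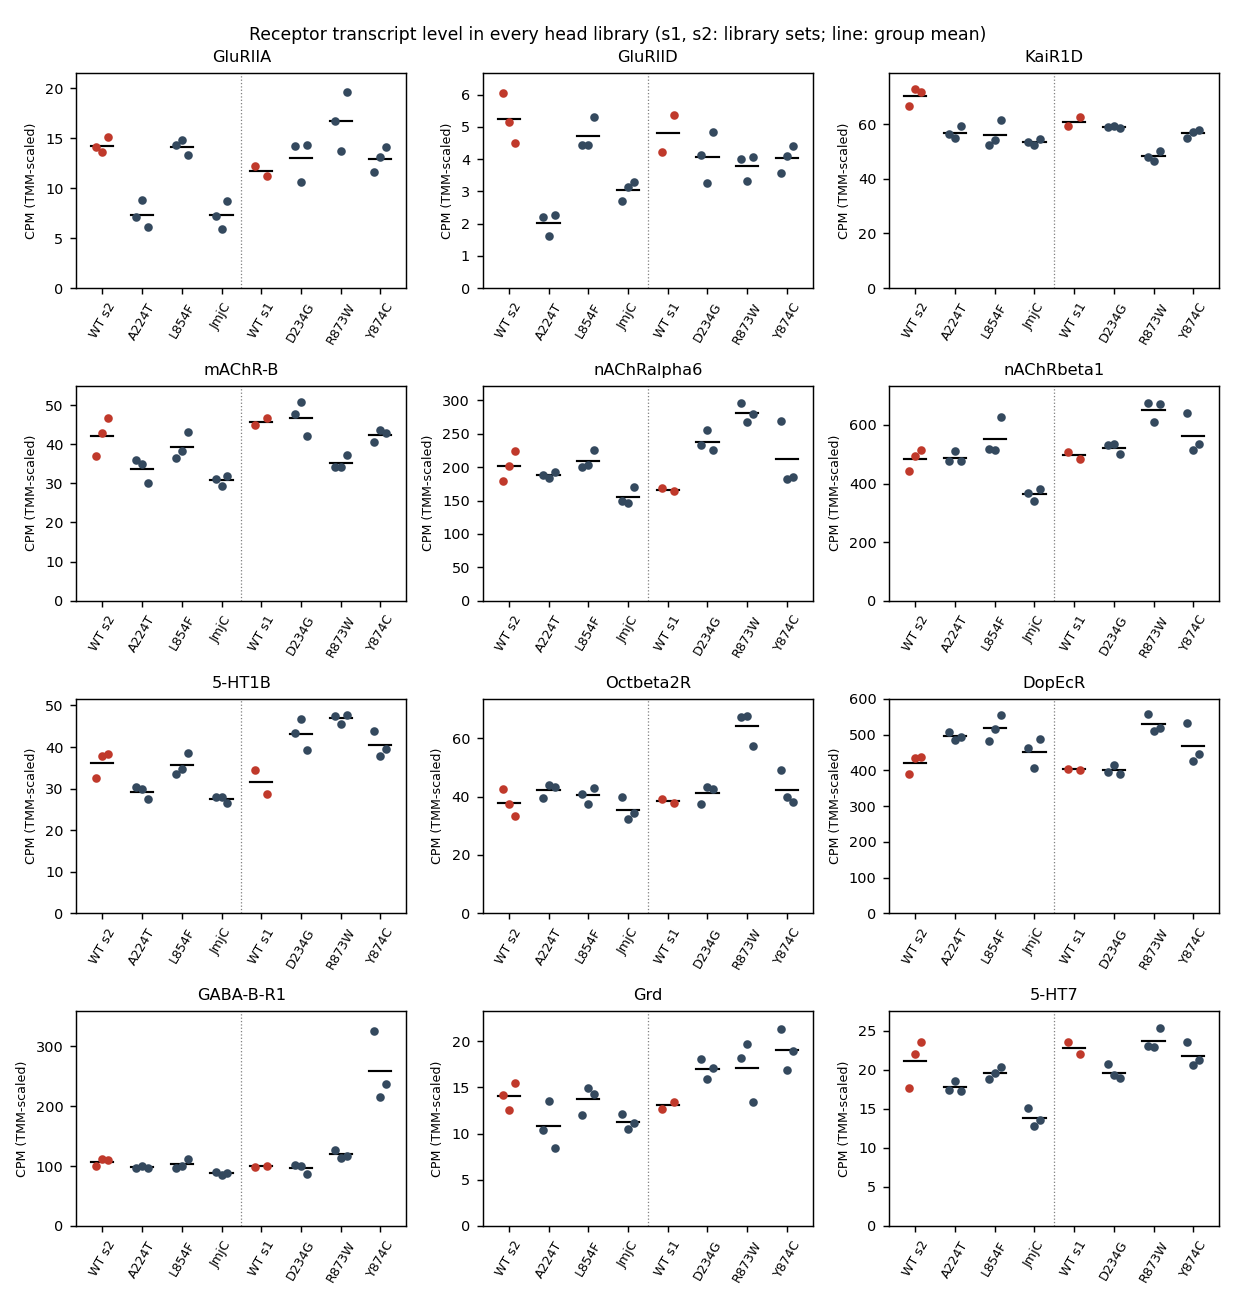
Transcript level (TMM-scaled CPM) of 12 receptor genes in every head library, with WT in red and lines at group means. The dotted line separates set 2 (left) from set 1 (right). GluRIIA and GluRIID are low in A224T and JmjC, and GABA-B-R1 in the 3 Y874C libraries (215 to 326 CPM) stands above all others.

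Among called genes the deepest falls were in glutamate receptors of the muscle type, while the sparsely counted mAChR-C had folds of -1.22 in A224T and -1.30 in JmjC that did not pass (adjusted p = 0.27 and 0.21). The neuromuscular receptor is a tetramer of GluRIIC, GluRIID and GluRIIE with either GluRIIA or GluRIIB. GluRIID, on chromosome arm 3R from 20648595 to 20652450 with its end overlapping GluRIIE on the same strand, measured 2.22, 1.61 and 2.25 CPM in A224T. JmjC had 2.70, 3.13 and 3.29 CPM, L854F had 4.42, 4.45 and 5.29 CPM, and WT 3 to 5 had 6.06, 5.15 and 4.50 CPM. A224T was lowest, JmjC came next, and both lay below every WT and L854F library. The fold was -1.37 ± 0.19 (standard error, adjusted p = 4.91e-05) in A224T and -0.78 ± 0.18 (adjusted p = 0.00391) in JmjC, and JmjC against A224T did not pass (0.58, adjusted p = 0.055).

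GluRIIA, which sets the size of the response at this synapse, lies on chromosome arm 2L from 5555072 to 5558994. It measured 7.07, 8.78 and 6.10 CPM in A224T and 7.23, 5.94 and 8.75 CPM in JmjC, against 14.1, 13.6 and 15.1 CPM in WT 3 to 5 and 14.3, 14.8 and 13.3 CPM in L854F. The low pair of strains did not overlap the high pair, and the fold was -0.96 in both A224T and JmjC (standard error 0.16, adjusted p = 0.000255 and 0.000167). GluRIIC fell by 0.93 in A224T and by 0.66 in JmjC. GluRIIE, at 2.21 to 2.78 CPM in A224T and 2.61 to 3.51 CPM in WT of set 2, had a fold of -0.18 that did not pass. A224T was also lower than L854F for GluRIID (-1.22, adjusted p = 0.000379), GluRIIA (-0.95, 0.00066) and GluRIIC (-0.66, 0.0152). The calls of GluRIIA, GluRIIC and GluRIID in A224T and JmjC against WT held with any 1 library left out.

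Structural muscle genes were counted beside these receptors. In A224T 1 of 15 rose and 0 fell, with a median fold of 0.12. Their summed level was 6820 to 9836 CPM in A224T against 6812 to 7891 CPM in WT of set 2. In JmjC 3 of the 15 fell, with a median fold of -0.26 and a summed level of 6146 to 6801 CPM. No defining muscle marker of the list was at 0 in any group. In R873W, where 9 of the 15 muscle genes rose (13328 to 15402 CPM against 9100 to 10493 CPM in WT 1 and 2), GluRIIA rose by 0.51 to 16.7, 13.7 and 19.6 CPM, from 12.2 and 11.2 CPM. That call was lost without R873W 3 (adjusted p = 0.103), WT 1 (0.0772) or WT 2 (0.184). In D234G 11 of the 15 muscle genes rose while GluRIIA, at 14.2, 10.6 and 14.3 CPM, overlapped WT. Over all genes, 7.18% were called higher and 9.1% lower in A224T, and 14% lower in JmjC. The shares called higher were 16.9% in R873W and 22.1% in D234G. The part of muscle RNA in the A224T and JmjC falls and in the R873W rise was not tested.

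Among neuronal glutamate receptors KaiR1D was the gene called lower in most strains. It encodes a kainate-type subunit that acts presynaptically at the larval neuromuscular junction, and lies on chromosome arm 3R from 20860187 to 20866231. Its level was 56.3, 54.7 and 59.2 CPM in A224T, 52.3, 54.3 and 61.6 CPM in L854F and 53.4, 52.2 and 54.6 CPM in JmjC, against 66.7, 72.8 and 71.8 CPM in WT 3 to 5. In R873W it was 47.9, 46.6 and 50.2 CPM against 59.2 and 62.4 CPM in WT 1 and 2. Each of these 12 libraries lay below the WT libraries of its set. The folds were -0.31, -0.33, -0.40 and -0.33 in A224T, L854F, JmjC and R873W, with a standard error of 0.06 to 0.07 and adjusted p of 0.00121, 0.00122, 8.03e-05 and 0.000866, and all 4 held with any 1 library left out. Under library-size scaling the A224T call was lost (fold -0.19, adjusted p = 0.086). D234G (59.0, 59.3 and 58.5 CPM) and Y874C (55.0, 57.1 and 57.8 CPM) did not pass against WT, and R873W was lower than each of them (by 0.29 and 0.23, adjusted p = 0.00132 and 0.00939). The WT libraries of set 2 were themselves higher in KaiR1D than those of set 1, by 0.21 (adjusted p = 0.0254).

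All 5 neuronal ionotropic glutamate genes fell in JmjC, where 14% of all genes were called lower. The 5 encode the AMPA-type subunits GluRIA (-0.61) and GluRIB (-0.54), the NMDA receptor subunits Nmdar1 (-0.36) and Nmdar2 (-0.36), and KaiR1D. In A224T GluRIA fell by 0.46, and JmjC was lower than A224T for Nmdar1 (-0.34, adjusted p = 0.0159) and Nmdar2 (-0.32, adjusted p = 0.0491). The Nmdar2 call in JmjC against WT was lost without JmjC 1 (adjusted p = 0.0869), JmjC 2 (0.105), WT 4 (0.0565) or WT 5 (0.0673). mGluR, the metabotropic glutamate receptor, rose by 0.52 in R873W (206, 175 and 180 CPM against 129 and 131 CPM, adjusted p = 0.00292) and held with any 1 library left out. R873W was higher in mGluR than D234G by 0.77 and than Y874C by 0.50 (adjusted p = 3.12e-05 and 0.00297).

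Of the GABA receptors, 1 gene had the largest rise of any receptor in the 6 strains. GABA-B-R1, the subunit of the metabotropic GABA-B receptor that binds GABA, measured 326, 215 and 237 CPM in Y874C against 98.8 and 99.8 CPM in WT 1 and 2. It measured 103, 100.2 and 86.2 CPM in D234G, 127, 114 and 117 CPM in R873W, and 85.6 to 112 CPM in all libraries of set 2. Every Y874C library was above every other head library, and the mean was 259 ± 58.8 CPM (SD, n = 3). The fold was 1.38 ± 0.13 (standard error, adjusted p = 6.32e-07), or 2.61-fold, and stayed between 1.21 and 1.52 with any 1 library left out. Y874C was also higher than D234G by 1.44 (adjusted p = 6.84e-08) and than R873W by 1.12 (adjusted p = 1.12e-06). In JmjC the fold was -0.28 and did not pass (adjusted p = 0.073).

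The gene for GABA-B-R1 lies on chromosome arm 2L from 15016331 to 15034704 (dm6) and overlaps CG31832 and CG33310. Of 17 genes within 40 kb, 16 were tested in Y874C, and 0 were called higher and 2 lower. The overlapping CG31832, on the other strand, had a fold of 1.51 (adjusted p = 0.077) in Y874C. CG33310, on the same strand, had 0.57 (adjusted p = 0.38). The overlap is of gene spans, and whether reads were shared with GABA-B-R1 was not tested. The strand setting, which is not given, would bear only on CG31832. GABA-B-R2, the partner of GABA-B-R1 that couples to the G protein, had a fold of 0.15 in Y874C that did not pass (adjusted p = 0.22). It was higher in Y874C than in R873W by 0.25 (adjusted p = 0.0134). GABA-B-R3 fell in JmjC by 0.59 and in A224T by 0.44, and both calls held with any 1 library left out.

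The ionotropic GABA genes moved less. Grd, a GABA receptor subunit homologue on chromosome arm 3L, measured 21.3, 16.9 and 18.9 CPM in Y874C against 12.7 and 13.4 CPM in WT 1 and 2. All Y874C libraries lay above WT, with a fold of 0.54 (standard error 0.17, adjusted p = 0.0476). D234G at 18.1, 15.9 and 17.1 CPM and R873W at 18.2, 19.7 and 13.4 CPM did not pass. The Grd call was lost without WT 1 (adjusted p = 0.214), WT 2 (0.184), Y874C 1 (0.109) or Y874C 3 (0.0948). Rdl, the main subunit of the fly GABA channel, fell by 0.45 in JmjC, a call lost without JmjC 2 (adjusted p = 0.0668). Lcch3, another channel subunit, was called in no strain against WT. The GABA class had the smallest share called in JmjC, 2 of 6 genes, where 14% of all genes were called lower.

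All 5 serotonin receptors fell in JmjC, where 14% of all genes were called lower. The falls lay between 0.34 (5-HT2A) and 0.61 (5-HT7), and these calls held with any 1 library left out. 5-HT7, which couples to cyclic AMP, was 15.1, 12.9 and 13.6 CPM in JmjC against 17.7, 22.03 and 23.6 CPM in WT 3 to 5, with no overlap. JmjC was lower than A224T for 5-HT7 (-0.36, adjusted p = 0.0186) and for the inhibitory receptor 5-HT1A (-0.28, adjusted p = 0.0474). In A224T, where 9.1% of all genes were called lower, 3 serotonin genes fell, 5-HT2B (-0.40), 5-HT1B (-0.31) and 5-HT1A (-0.28). The A224T calls of 5-HT1A, 5-HT1B and 5-HT2B were each lost without A224T 3 (adjusted p = 0.104, 0.0965 and 0.0593) or WT 5 (0.155, 0.0759 and 0.052). Those of 5-HT1A and 5-HT1B were also lost without WT 4 (0.0633 and 0.0756), and that of 5-HT1A without A224T 1 (0.122).

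5-HT1B was called in 5 of the 6 strains, with opposite signs in the sets. This inhibitory serotonin receptor measured 43.5, 46.9 and 39.4 CPM in D234G, 47.4, 45.5 and 47.7 CPM in R873W and 43.9, 37.8 and 39.5 CPM in Y874C, against 34.4 and 28.6 CPM in WT 1 and 2. In set 2 it measured 30.3, 29.8 and 27.6 CPM in A224T and 27.98, 28.04 and 26.5 CPM in JmjC, against 32.7, 37.8 and 38.2 CPM in WT 3 to 5, while L854F (33.4, 34.8 and 38.5 CPM) overlapped WT. The 3 strains of set 1 lay above their WT and A224T and JmjC below theirs. The folds were 0.45, 0.57 and 0.36 in D234G, R873W and Y874C (standard error 0.10, adjusted p = 0.00259, 0.000187 and 0.018) and -0.31 and -0.40 in A224T and JmjC (adjusted p = 0.0174 and 0.00209). WT 2 decided part of this: without it the adjusted p was 0.118 in D234G and 0.313 in Y874C, and without Y874C 1 it was 0.0502. The R873W call held with any 1 library left out. 5-HT2A rose by 0.20 in R873W, a call lost without WT 1 (adjusted p = 0.102), WT 2 (0.339), R873W 1 (0.078) or R873W 3 (0.097), and it was 0.40 higher in WT of set 2 than of set 1 (adjusted p = 0.000862).

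Of the dopamine receptors, Dop2R, the inhibitory receptor, fell by 0.56 in JmjC (adjusted p = 8.92e-05), and Dop1R1 and Dop1R2, which raise cyclic AMP or calcium, fell by 0.48 and 0.28. The Dop1R2 call was lost without any of JmjC 1 (adjusted p = 0.137), JmjC 2 (0.203), JmjC 3 (0.0987), WT 4 (0.0624) or WT 5 (0.193). Dop1R1 also fell by 0.48 in A224T. DopEcR, which responds to both dopamine and the steroid ecdysone, was the exception in the class. It measured 482, 516 and 553 CPM in L854F, 508, 484 and 494 CPM in A224T and 461, 408 and 489 CPM in JmjC, against 389, 434 and 438 CPM in WT 3 to 5. It measured 558, 510.4 and 518 CPM in R873W, 533, 425 and 446 CPM in Y874C and 394, 416 and 391 CPM in D234G, against 405 and 401 CPM in WT 1 and 2. The rises of 0.30 in L854F (adjusted p = 0.0223) and 0.39 in R873W (adjusted p = 0.00301) passed, and A224T, also wholly above WT, had 0.24 (adjusted p = 0.053). The L854F call was lost without L854F 2 (adjusted p = 0.0651), L854F 3 (0.105) or WT 3 (0.098), and the R873W call without WT 2 (0.0505). In R873W Dop2R fell by 0.26, a call lost without R873W 1 (0.086), R873W 2 (0.181), WT 1 (0.175) or WT 2 (0.0845). Dop1R1, Dop1R2 and Dop2R were also lower in WT of set 2 than of set 1, by 0.34, 0.41 and 0.29.

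In R873W 2 of the 5 octopamine and tyramine receptor genes rose, Octbeta2R and Octbeta1R, and the others did not pass. Of all genes 16.9% were called higher in R873W. Octbeta2R, an octopamine receptor that raises cyclic AMP, measured 67.3, 67.7 and 57.2 CPM in R873W against 39.2 and 37.9 CPM in WT 1 and 2. Y874C had 49.1, 40.0 and 38.1 CPM, D234G had 37.5, 43.4 and 42.7 CPM, and set 2 spanned 32.2 to 43.998 CPM. The R873W libraries were the 3 highest of all 23, with a fold of 0.73 (standard error 0.12, adjusted p = 0.000168). R873W was higher than D234G by 0.63 and than Y874C by 0.60 (adjusted p = 0.00024 and 0.000839). Octbeta1R rose by 0.52 in R873W and by 0.28 in Y874C. The R873W calls held with any 1 library left out, and the Y874C call was lost without WT 1 (adjusted p = 0.0609), WT 2 (0.384) or Y874C 1 (0.145). In JmjC 4 of the 5 genes of this class fell, where 14% of all genes were called lower. The 4 were Oct-TyrR (-0.46), Octbeta3R (-0.45), Octalpha2R (-0.33) and Octbeta1R (-0.23). Octalpha2R was lost without JmjC 1 (adjusted p = 0.0662), JmjC 2 (0.0671), JmjC 3 (0.0661) or WT 5 (0.115), and Octbeta1R without any JmjC library (0.0942, 0.246 and 0.104), WT 4 (0.102) or WT 5 (0.159). Oct-TyrR, a tyramine receptor, also fell by 0.30 in A224T, a call lost without A224T 1 (adjusted p = 0.0703), A224T 3 (0.0522) or WT 4 (0.0554).

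Counted by transmitter class, in JmjC the share called lower ran from 2 of 6 in GABA through 3 of 4 in dopamine, 8 of 10 in glutamate, 4 of 5 in octopamine and tyramine and 10 of 12 in acetylcholine to 5 of 5 in serotonin, with class medians between -0.57 and -0.30. Ionotropic subunits (17 of 21) and G protein coupled receptors (15 of 21) had median folds of -0.40 each. In A224T glutamate (5 of 10, median -0.29) and serotonin (3 of 5, median -0.28) held 8 of the 12 calls, and acetylcholine held 1 of 12. In R873W acetylcholine held 4 rises and 3 falls and octopamine and tyramine 2 rises, while no GABA gene was called. Over all genes, 14% were called lower in JmjC and 9.1% lower in A224T. In R873W 16.9% of all genes were called higher and 18.5% lower. The acetylcholine share in A224T was thus near its background. With 4 to 12 genes tested a class, 1 call shifts a share widely. No test of a difference between classes was run.

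Strains of the same set differed from each other in these genes. JmjC was lower than L854F for 31 of 42 (25.8% of all genes called, 11.5% higher and 14.3% lower) and lower than A224T for 7 (10.4% called, 4.94% higher and 5.48% lower), with 0 higher in each. The latter count fell to between 1 (without JmjC 2) and 4 (without JmjC 3) with any 1 of the 6 libraries left out, and to 1 higher and 1 lower with library-size scaling. A224T was lower than L854F for 5 (5.85% called, 2.6% higher and 3.25% lower), which fell to 2 without A224T 1, A224T 3 or L854F 3 and to 3 without L854F 2. Of D234G against R873W, 5 were higher and 12 lower in D234G (44.1% called, 28.1% higher and 16% lower). Of D234G against Y874C, 0 were higher and 5 lower in D234G (39.1% called, 25.3% higher and 13.8% lower). Of Y874C against R873W, 4 were higher and 12 lower in Y874C (26.9% called, 13.4% higher and 13.5% lower). Without D234G 2 the D234G and Y874C count was 10, and the Y874C and R873W count was 10 without R873W 1, 6 without Y874C 2 and 5 without Y874C 3. WT of set 2 and set 1 differed in 10 receptor genes (3 higher and 7 lower in set 2, with 25.7% of all genes called, 13% higher and 12.6% lower), a count of 3 without WT 1 or WT 2 and of 6 without WT 3 or WT 4.

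The counts against WT also leaned on single libraries. The A224T count was 7 without A224T 3 and 19 without WT 3, the L854F count was 1 without L854F 2 or L854F 3, and the D234G count was 0 without WT 2. The R873W count was 9 without WT 1 and 7 without WT 2, and the Y874C count was 2 without WT 1 and 1 without WT 2. The JmjC count stayed between 24 and 33. With R873W 1, the R873W library with the least male reproductive RNA, as the only R873W library, 9 were higher and 1 lower. Both D234G calls remained with D234G 2 as the only D234G library, and both were lost with D234G 3 as the only one (adjusted p = 0.109 for 5-HT1B and 0.0929 for nAChRalpha6). In these fits the lone library is assumed to vary like the other groups.

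Pan-neuronal genes were counted in the same comparisons. In JmjC 9 of 15 fell where 14% of all genes were called lower (median fold -0.26), with summed levels of 8239 to 9110 CPM against 10102 to 11868 CPM in WT of set 2, while the receptor genes together had 3199 to 3558 CPM against 3878 to 4527 CPM. In A224T 3 of the 15 fell (9095 to 10614 CPM), where 9.1% of all genes were called lower. In R873W 6 of the 15 rose, where 16.9% of all genes were called higher. The pan-neuronal sum was 13577 to 15482 CPM there against 11492 to 12093 CPM in WT of set 1. Receptor genes summed to 4943 to 5547 CPM in R873W against 4365 to 4516 CPM. Y874C 1 had the highest pan-neuronal sum of its strain, 13688 CPM against 10481 and 11041 CPM, and the highest GABA-B-R1 level. No pan-neuronal gene was at 0 in any group. The part of neuronal content in the receptor folds was not tested. Of 11 glial genes 1 rose and 2 fell in JmjC, and 4 rose and 1 fell in R873W. In JmjC 5 of 10 hemocyte genes rose (summed 1165 to 1382 CPM against 940.3 to 969.7 CPM), 4 of 12 antennal genes fell (1008 to 1099 CPM against 1162 to 1337 CPM), and 2 of 15 photoreceptor genes rose and 6 fell. Of 7 fat body and yolk genes tested 1 rose and 3 fell in JmjC, and 3 rose and 0 fell in both R873W (summed 21706 to 27226 CPM) and Y874C (17815 to 22537 CPM), against 11112 to 12669 CPM in WT of set 1.

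**Figure D4:**
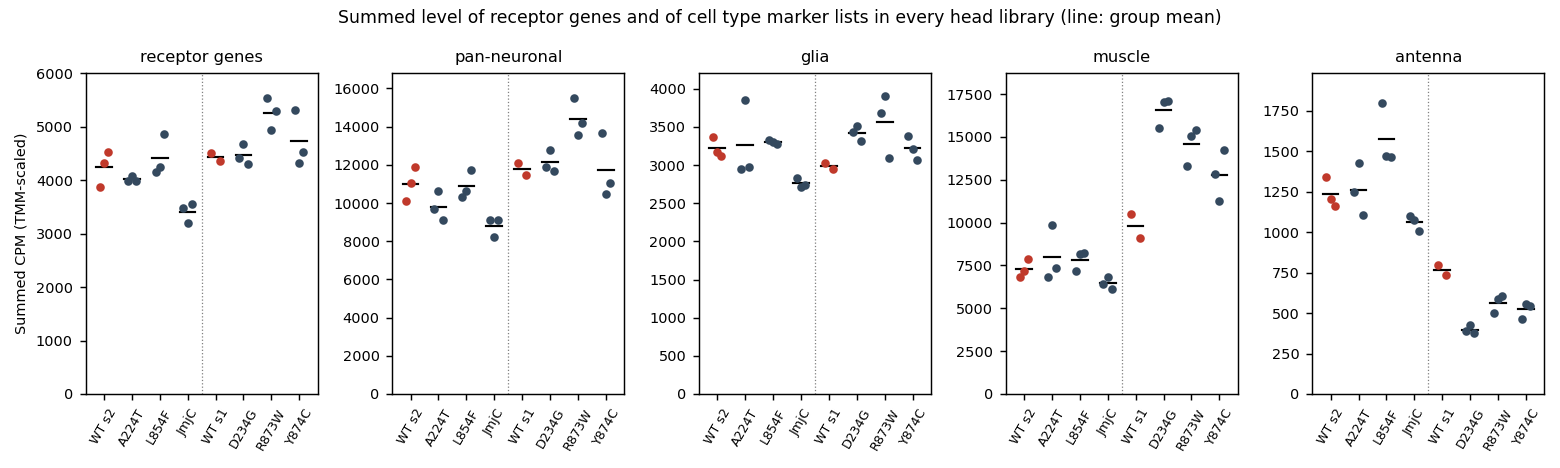
Summed TMM-scaled CPM of the receptor genes and of 4 cell type marker lists in every head library, with WT in red and lines at group means. Receptor and pan-neuronal sums are both lowest in JmjC and highest on average in R873W, while the muscle and antennal sums follow the library set as well as the strain.

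Receptors outside the naming rule and the signalling partners of receptors were counted from lists of their own. Of 12 other transmitter receptors 6 fell and 0 rose in JmjC, 5 fell in A224T, and 4 rose and 1 fell in both R873W and Y874C. All genes were called in 24.1% (JmjC), 16.3% (A224T), 35.4% (R873W) and 11.6% (Y874C), so the R873W share is near its background. The tyramine receptor TyrR fell by 0.67 in JmjC and by 0.47 in A224T, the octopamine receptor Oamb fell by 0.47 in JmjC, and the kainate-type subunit Ekar fell by 0.64 in A224T. HisCl1, a histamine-gated chloride channel of the visual system, rose in L854F (0.23), D234G (0.33), R873W (1.09, adjusted p = 1.23e-08) and Y874C (0.56). Of the 12 other receptors 1 rose and 0 fell in L854F, where 10.3% of all genes were called. In D234G 2 rose and 1 fell, where 33.7% were called. Of 23 receptor partners and G protein signalling genes 8 fell in JmjC, led by the calcium channel subunit Ca-alpha1D (-0.64) and Rgk1 (-0.48), and 11 rose and 3 fell in R873W. The scaffold gene homer rose in L854F (0.36), D234G (0.58), R873W (0.89) and Y874C (0.50). Of the 23 partner genes 1 rose and 0 fell in L854F, 2 rose and 0 fell in D234G, and 2 rose and 2 fell in Y874C. The D234G share was under its background. In Y874C Neto, an auxiliary subunit of the neuromuscular glutamate receptor, fell by 0.39 and dnc, the cyclic AMP phosphodiesterase, by 0.44.

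Neuronal knockdown of kdm5 was read from the ribosome profiling comparison. In the authors' deposited table, Kdm5 itself had a log2 fold of -0.97 in RNA (adjusted p = 2.06e-22) and -2.02 in footprints. In RNA, 6 of 44 receptor genes were higher in knockdown and 0 lower in the authors' deposited table, where 20.7% of all genes were called, 10.1% higher and 10.7% lower, so the receptor count is near the background. The median over the receptor genes was 0.15 there, against -0.05 over all genes of the authors' deposited table. The 6 were Octalpha2R (0.55, adjusted p = 3.3e-05), Octbeta1R (0.47, 0.00148), GABA-B-R3 (0.38, 0.0121), GABA-B-R1 (0.37, 0.00995), 5-HT2A (0.31, 0.0398) and Dop1R1 (0.30, 0.0283) in the authors' deposited table. With 1 transcript kept a gene, all 6 encode G protein coupled receptors, and the calls depend on the transcript kept. In the authors' deposited table Dop1R1 was called in 1 of its 5 transcripts, and the ionotropic genes Nmdar2, Rdl and nAChRalpha7, not called in the transcript kept, were called in 2 of 7, 2 of 6 and 2 of 4. With any transcript counted 9 genes were called higher in the authors' deposited table, and 3 of the 6 calls remained at an adjusted p under 0.01. The largest falls in RNA among genes with a mean RNA count of 100 or more, nAChRbeta3 (-0.60) and 5-HT7 (-0.20), did not pass in the authors' deposited table. nAChRbeta3 had a mean RNA count of 419 in the authors' deposited table, although it had 0 counts in the head libraries.

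Of receptor footprints only those of Nmdar1 were called in the authors' deposited table, 0.41 lower (adjusted p = 0.0189), where 25.1% of all genes were called, 7.2% higher and 17.9% lower. In its te column, Grd (0.80, adjusted p = 0.032) and GABA-B-R2 (0.39, 0.0403) were higher and GluRIIC (-2.55, 0.00319), GluRIID (-1.66, 0.00258) and Nmdar1 (-0.41, 0.0378) lower in the authors' deposited table, where 26.9% of all genes were called, 9.64% higher and 17.2% lower. GluRIB, not called in the transcript kept, was called in te in 1 of its 4 transcripts in the authors' deposited table. The te column of the authors' deposited table followed footprints rather than footprints minus RNA. Over 6371 genes with a mean footprint count of 100 or more, te differed from the footprint fold by a median of 0.02 and from the difference of both folds by a median of 0.20 in the authors' deposited table. The te values are therefore not read here as footprints per RNA. Beside these, the second largest rise in te among genes with a mean RNA count of 100 or more, GABA-B-R1 (0.44, adjusted p = 0.056), and the second largest fall, GluRIIA (-0.71, 0.22), did not pass in the authors' deposited table. GluRIIC and GluRIID had mean footprint counts of only 7.29 and 15.1 in the authors' deposited table. All 15 muscle genes were lower in te in the authors' deposited table (median -1.15), 9 were higher in RNA, and 10 of 15 pan-neuronal genes were higher in te. The part of muscle RNA in the GluRIIC and GluRIID values was not tested.

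**Figure D5:**
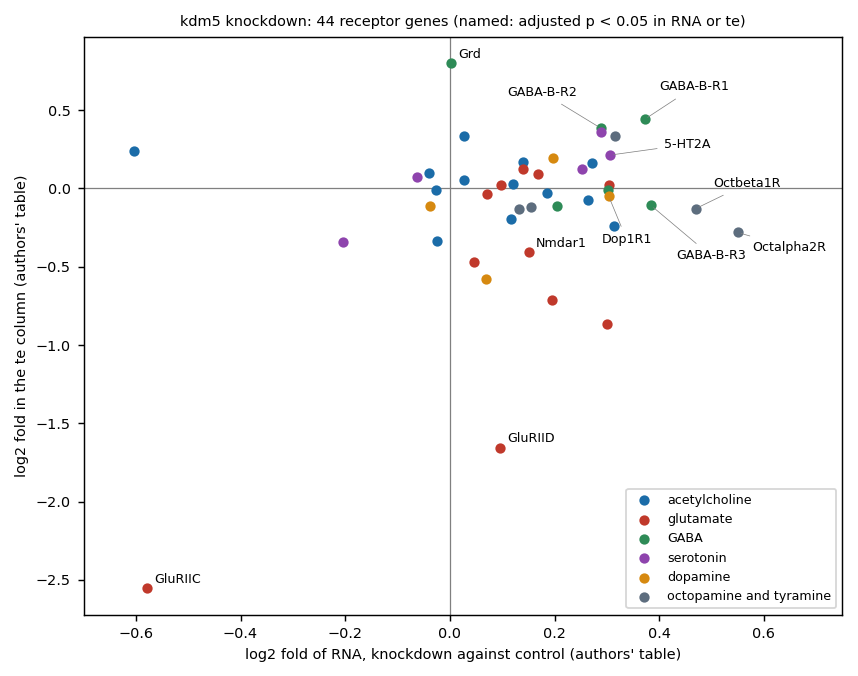
Log2 fold of RNA (x) and of the te column (y) in kdm5 knockdown against control for 44 receptor genes, from the authors' deposited table, colored by transmitter. Named genes have an adjusted p under 0.05 in either column. The RNA calls lie to the right, at 0.30 to 0.55, and GluRIIC and GluRIID lie lowest, at -2.55 and -1.66.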

How the data were processed

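The authors deposited whole-number counts per gene for 23 head libraries and, for Ribo-Seq, a comparison table. Per the submitters' processing notes, fastp, STAR and featureCounts were used with the dm6 build, and DESeq2 is listed. No strand setting or version is given in these sources, so counts of overlapping genes are uncertain. The deposited table gives rna, rfp and te folds, per the file headers, read as log2 because the notes list DESeq2, with the authors' adjusted p-values and mean counts (score). Here 1 transcript a gene was kept, that with the highest mean RNA count. Rows other than genes (0.764 to 1.52% of counts) were left out. Head counts were fitted with edgeR 4.0.16 in R 4.3.3 (TMM, filterByExpr, quasi-likelihood F-test) in 1 model over 23 libraries with WT split at 5 CPM of roX2, and p-values were adjusted by Benjamini-Hochberg over 12925 genes. DESeq2 1.42.0 was an alternative. CPM are TMM-scaled. The code was tested on simulated data. Replicate pairs all differed beyond counting noise (chi-square per degree of freedom 7.54 to 83.2 within a library set, and up to 149 between WT libraries of different sets). The top of the range within a set came from Y874C 1, at 83.2 against Y874C 2 and 62.8 against Y874C 3. Y874C 2 against Y874C 3 gave 11.3. Members, lists, tests and alternatives were chosen with earlier results of these data known. Every member was counted, those called in the same direction in 3 or more strains and the 2 called members with the largest rise and the largest fall of a comparison are given by library, and nAChRbeta1, 5-HT7 and mGluR were added after their values were seen. Exon lengths were not used here, so levels are not compared between genes.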

Additional observations from a re-analysis of the deposited data

Results flagged for a closer look

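Among 42 genes checked over the 5 WT libraries, 2 had a sample far from the others. For libraries of a single population chance gives about 1 in 20, so 2 of 42 is near that rate. The WT libraries mix both library sets, so the rate is only a rough guide here. For 5-HT7, WT 3 was lowest, and its gap to the next library was 0.734 of the range. For Lcch3, WT 1 was lowest, with a gap of 0.794 of the range.

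Strains of the same library set differed from each other by direct test in 5 receptor genes (A224T and L854F), 7 (JmjC and A224T), 31 (JmjC and L854F), 17 (D234G and R873W), 5 (D234G and Y874C) and 16 (Y874C and R873W). The report gives the genes and the counts with libraries left out.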

How the results depend on the processing

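The fit with a replicate block called 2 receptor genes in A224T, 0 in L854F and 4 in JmjC, because only WT 3 then serves as a control in set 2. The replicate numbers did not pair the samples: over 27 same-numbered pairs the correlation of deviations ran from -0.562 to 0.146, and 2 were over 0.1. With library size only, 17 were called in JmjC, 3 in A224T against L854F, 2 in JmjC against A224T, 15 in JmjC against L854F and 3 in D234G against Y874C. With all 5 WT libraries as control, 6 were called in D234G, 3 in A224T against L854F and 3 in D234G against Y874C, and the 5-HT2A fold in R873W turned to -0.038 (adjusted p = 0.773). With only the 2 groups compared in the fit, 2 were called in Y874C, 6 between the WT sets, 11 in JmjC against A224T, 3 in D234G against Y874C and 4 in Y874C against R873W. Without the filter, 9 were called in D234G against Y874C.

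With D234G 3 as the single D234G library 0 were called in D234G. The next alternatives were chosen after seeing the data. With D234G 2 as the single D234G library 7 were called against R873W and 1 against Y874C. With R873W 1 as the single R873W library 10 were called in R873W and 5 in Y874C against R873W. At an adjusted p under 0.01 the authors' deposited table called 3 in RNA, 0 in footprints and 2 in te.

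With 1 library left out, the counts ran from 7 to 19 in A224T, 1 to 2 in L854F, 24 to 33 in JmjC, 0 to 3 in D234G, 7 to 15 in R873W, 1 to 5 in Y874C and 3 to 9 between the WT sets. Between strains they ran from 2 to 5 (A224T and L854F), 1 to 4 (JmjC and A224T), 21 to 30 (JmjC and L854F), 12 to 19 (D234G and R873W), 4 to 10 (D234G and Y874C) and 5 to 20 (Y874C and R873W). Each such fit has fewer samples, and no other cause was tested.

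Among the called folds of receptor genes against WT, the replicate block left 42 short of the threshold, library size only 24, only the 2 groups compared 14, all 5 WT libraries 10 (with 1 reversed), no filter 4 and DESeq2 3. Set 1 has 2 WT libraries, so its calls rest on few controls, and the shallow D234G 1 and 2 limit low receptor genes.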
